A study of Mus musculus with 18 samples.

Results

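Cultures of mouse dorsal root ganglia taken after 10 days in myelination medium were compared with cultures taken just before that medium was added (day 0), on 12 of the 18 arrays of the study, 6 from each day. Ganglia of E13.5 embryos of the C57BL/6J strain were grown on matrigel for 12 days in growth medium before day 0, and the labels give the treatment as control on day 0 and as myelination medium on day 10, with no other agent. Each day had 3 batches, each from embryos pooled on a separate occasion, and 2 arrays per batch. Total RNA of the whole explant was hybridised to one-colour Agilent arrays, so that neurons, Schwann cells, satellite glia, fibroblasts and macrophages were measured together, and a change in the number of cells of a type cannot be told apart from a change in RNA per cell. No culture kept for 10 more days in growth medium was among the samples used here, so the medium cannot be told apart from time in culture. Of 20145 RefSeq genes with a matched probe, 14543 passed the filter on dim signals and were tested.

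In the ganglion, Schwann cells leave the cell cycle, wrap axons and make very large amounts of membrane, protein and lipid when they start to myelinate. Cells under protein, oxidative or nutrient stress turn on separate sets of genes: heat shock factors induce cytosolic chaperones, the unfolded protein response induces chaperones of the endoplasmic reticulum, ATF4 induces amino acid genes, and NRF2 induces glutathione and heme enzymes. Secreted signals of the Wnt, BMP, FGF, Notch and Hedgehog families act on the same cells during development and nerve repair.

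A level is the log2 of an array's processed signal minus the 75th percentile of that array, and a set of 3 levels gives the lowest, the median and the highest of the 6 arrays of a day. A difference is day 10 minus day 0 in log2 units. Its standard error is limma's, with the spread pooled over the 3 batches of each of the 3 days and drawn toward that of all features. The deposited value table and the array files place 8 of these 12 arrays in different batches of the same day. A gene was therefore called higher or lower only where limma's Benjamini-Hochberg adjusted p was under 0.05 with both placements, and the larger standard error and adjusted p of both fits are given.

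In all, 1046 genes (7.19% of those tested) were called higher on day 10 and 1114 (7.66%) lower. The rises were larger than the falls. The median difference of the genes called higher was 1.11, against -0.60 for those called lower, and 573 genes rose (3.94%) and 238 fell (1.64%) by at least 2-fold. A rise of at least 8-fold was called for 66 genes and a fall of that size for 4. The median over all genes tested was -0.04, with 6559 genes above 0 and 7984 below.

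The 6 arrays of day 0 lay on 3 slides and those of day 10 on slides 1 and 2. All 2160 called genes kept their sign among the arrays of slide 1 and of slide 2. The calls were made on these same arrays, so the kept signs are not an independent check on slides. With the 6 arrays of day 10 all above or all below the 6 of day 0 as the criterion, 1450 genes (9.97%) stood higher and 1593 (11%) lower. Leaving out batch 1 of day 0 left 1076 higher and 1211 lower. The counts fell to 499 and 392 without batch 2 of day 0, to 488 and 380 without batch 3 of day 0, to 521 and 401 without batch 1 of day 10, to 548 and 481 without batch 2 of day 10, and to 349 and 210 without batch 3 of day 10. The same batches were left out for the counts of each list, by both placements.

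**Figure D1:**
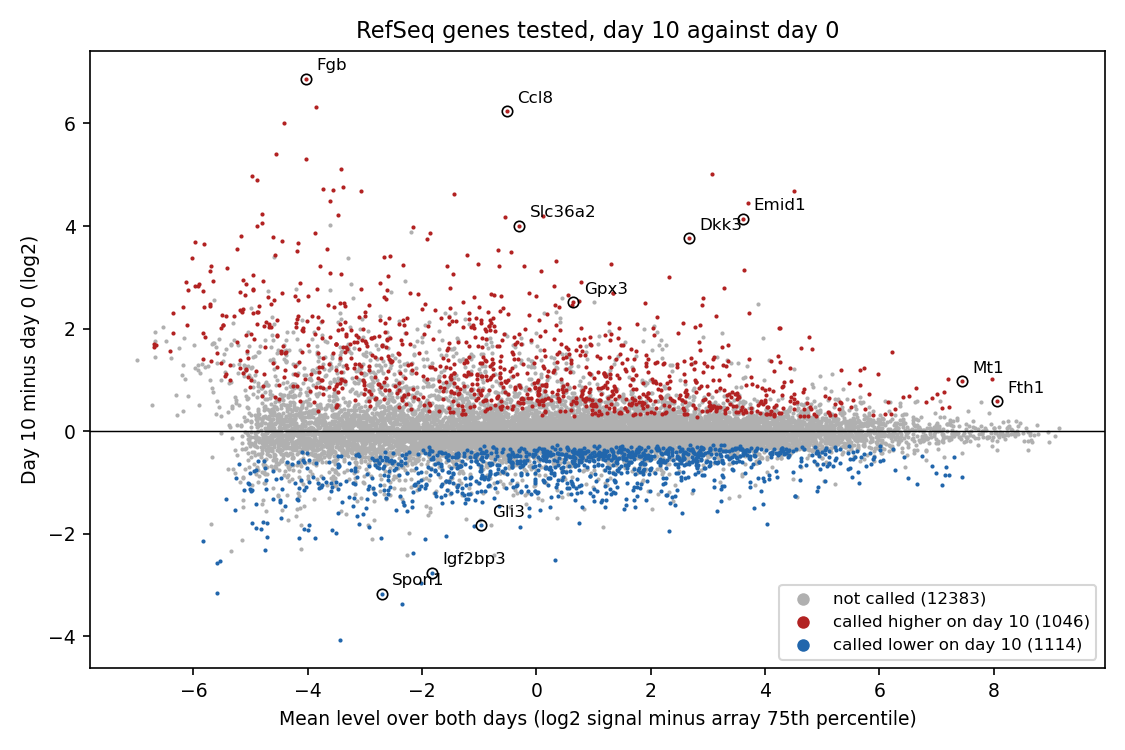
Mean level of each of the 14543 RefSeq genes over both days (x axis, log2 signal minus the array's 75th percentile) against its difference, day 10 minus day 0 (y axis, log2). Red points are the 1046 genes called higher, blue points the 1114 called lower and grey points the rest, and the rises reach further from 0 than the falls.

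Markers of the cell types in the explant were read first. All 15 sensory neuron markers were tested, and their mean level was 3.03 to 4.34 over the arrays of day 0 and 4.27 to 4.53 on day 10. Of these, 13 lay above 0, with a median difference of 0.38. The 1 member called higher was P2rx3, an ATP-gated channel of pain neurons (difference 0.64 ± 0.16, adjusted p = 0.025), though not with any batch left out. The list's count was 1 without batch 1 of day 0 and 0 without any other batch. All 10 Schwann cell markers were tested, with list means of 4.37 to 4.67 and 4.65 to 5.16, and Mbp and Pmp22, both myelin proteins, were called higher. Mbp had 1 probe that rose by 1.64 and 2 probes with the opposite sign. With the batch number as a block, 4 Schwann markers were called higher and 1 lower.

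Macrophage markers had a list mean of -0.32 to 1.41 on day 0 and 1.5 to 3.0 on day 10, and 11 of 12 lay above 0, with a median difference of 1.65. Lysozyme (Lyz2) was the 1 member called (3.26 ± 0.46, adjusted p = 0.00618), against 10 with the batch block. Fibroblast markers had a list mean of 2.08 to 3.63 and 3.17 to 3.93, with 1 of 9 called higher, Pdgfrb (0.55, adjusted p = 0.0582 with the batch block), though not with any batch left out. The count of fibroblast markers was 1 without batch 1 of day 0 and 0 without any other batch. Of the melanocyte markers, Tyrp1 and Mitf were called higher while Dct, Mlana, Slc45a2 and Oca2 did not pass the filter on dim signals.

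Markers of some other cell types did not pass the filter, which asks that every array of some day be well above background. Skeletal muscle markers failed it in 9 of 10 cases, fat cell markers in 6 of 8 and erythroid markers in 6 of the 8 with a probe. Of the mast cell, neutrophil and lymphocyte markers, 9 of 16 did not pass the filter on dim signals, and 1 of the 7 tested, S100a8, was called higher, from no array of day 0 well above background to 4 of day 10. Of the endothelial markers, Tek, Tie1 and Erg did not pass the filter on dim signals and 1 of 7 tested, Esam, was called higher. Of the cartilage and bone markers, 7 were tested and 0 called by limma, with 1 higher and 1 lower with the batch block. Among smooth muscle and pericyte markers, 5 of 12 did not pass the filter on dim signals and 1 of 7 tested, Actg2, was called higher, and 0 with any batch left out.

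The cytosolic chaperones that a heat shock induces differed little between the days, whereas 3 small heat shock proteins rose. Of 21 heat shock chaperones tested, 0 were called in either direction by limma, 0 with the batch block, and 1 lower when only the array files' batches were used. Their differences ran from -0.31 to 0.19 with a median of -0.06, against -0.04 over all genes. The inducible Hsp70 gene Hspa1a had levels of -1.53, -1.31 and -0.65 on day 0 and -1.27, -1.05 and -0.72 on day 10, and the constitutive Hsp70 gene Hspa8 had 7.65, 7.84 and 8.04 against 7.69, 7.89 and 8.08. The days overlapped for both genes, and 2 of the 3 Hspa8 probes had a difference of opposite sign to the brightest. The largest difference of the list was that of the Hsp40 gene Dnajb1 (-0.31 ± 0.13, adjusted p = 0.13).

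Small heat shock proteins bind unfolding proteins without using ATP, and mutations of Hspb1 and Hspb8 cause inherited motor and sensory neuropathies. Of the 5 tested, 3 were called higher and the median difference was 1.16. Hspb2 rose from 1.31, 1.45 and 1.91 to 2.86, 3.62 and 3.75 (1.92 ± 0.23, a 3.79-fold rise, adjusted p = 0.00334). Hspb1 rose from 2.29, 3.54 and 3.93 to 4.58, 4.72 and 5.23 (1.36 ± 0.24, 2.57-fold, adjusted p = 0.012), and Hspb8 from 0.55, 1.34 and 2.16 to 2.40, 2.50 and 2.75 (1.16 ± 0.26, 2.23-fold, adjusted p = 0.0264). For all 3 the arrays of day 10 lay above those of day 0. The lens crystallin Cryab, which is bright on every array, had 6.89, 7.09 and 7.42 against 7.14, 7.35 and 7.47, and Hspb6 had 0.22, 0.40 and 0.57 against 0.07, 0.21 and 0.43, with adjusted p of 0.497 and 0.268. The count was 3 without batch 1 of day 0 and 2 without any other batch. Hspb3 and Hspb7 did not pass the filter on dim signals.

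The upstream sequences of Hspb1 and Hspb8, which rose, and of the inducible Hsp70 gene are shown because heat shock factors bind pairs of GAA blocks. The windows are the 250 bases before the annotated start, from RefSeq promoters of the build GRCm38.p6, with each GAANNTTC in capitals (this motif reads the same on both strands).
Hspb1, chr5:135887669-135887918, plus strand: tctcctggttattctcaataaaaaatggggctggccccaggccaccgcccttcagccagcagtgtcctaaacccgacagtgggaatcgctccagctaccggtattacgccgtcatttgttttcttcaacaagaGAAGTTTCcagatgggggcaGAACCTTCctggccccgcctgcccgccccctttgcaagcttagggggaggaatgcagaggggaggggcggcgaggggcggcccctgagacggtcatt
Hspb8, chr5:116422865-116423114, minus strand: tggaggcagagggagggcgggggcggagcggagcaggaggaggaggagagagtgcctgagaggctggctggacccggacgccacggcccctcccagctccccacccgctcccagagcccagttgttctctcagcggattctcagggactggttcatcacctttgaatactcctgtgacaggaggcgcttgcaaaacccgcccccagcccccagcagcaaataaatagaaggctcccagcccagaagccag
Hspa1a, chr17:34972157-34972406, minus strand: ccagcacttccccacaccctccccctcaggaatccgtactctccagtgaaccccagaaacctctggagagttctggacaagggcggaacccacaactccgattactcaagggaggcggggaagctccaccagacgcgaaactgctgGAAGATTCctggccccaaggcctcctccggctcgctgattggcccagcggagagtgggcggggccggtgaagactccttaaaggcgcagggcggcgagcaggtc
Of 10 heat shock genes looked up, 7 had a window, and the motif was in 2 of them, Hspb1 with 2 matches and Hspa1a with 1. It was not in the windows of Hspb8, Hspb6, Dnajb1, Hsph1 and Hspd1. Only pairs with the GAA block first were searched for, and pairs in the opposite order were not counted. The Hsph1 window holds such a pair, so a window without this motif may still hold paired blocks. The motif is in 6.69% of the 32851 promoter windows of this length. A match describes letters in a window and says nothing of binding in these cultures.

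Genes of the unfolded protein response and of the ATF4 response were called at rates no higher than those of all genes. Of 22 genes of the unfolded protein response, 1 was called lower (4.5%, against 7.66% of all genes) and 0 higher (against 7.19%). Of the 22 differences, 19 were below 0 (median -0.15). The 1 called was Hsp90b1, the reticulum's Hsp90, with 5.49, 5.67 and 5.87 on day 0 and 5.0, 5.31 and 5.41 on day 10 (-0.42 ± 0.11, adjusted p = 0.0433), which was not called with any batch left out. Hspa5, the reticulum's Hsp70 known as BiP, had 5.58, 5.87 and 6.08 against 5.31, 5.53 and 5.95 (adjusted p = 0.324).

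Of 20 genes of the ATF4 response, 1 was called higher (5.0%, against 7.19% of all genes) and 1 lower (5.0%, against 7.66%), with a median of -0.31. Atf4 itself had 7.12, 7.35 and 7.47 on day 0 and 7.03, 7.16 and 7.45 on day 10, and Ddit3, the factor CHOP, had 0.94, 1.43 and 1.98 against 1.40, 1.93 and 2.75. Neither was called (adjusted p of 0.422 and 0.232). The 1 that rose was Slc7a11, the cystine importer that feeds glutathione synthesis, from -5.45, -3.69 and -2.12 to -2.26, -1.55 and -0.36 (2.20 ± 0.46, 4.59-fold, adjusted p = 0.0214), with the highest array of day 0 above the lowest of day 10. The p53 and nutrient sensor Sesn2 fell slightly (-0.38 ± 0.10, adjusted p = 0.0443). In this list 2 were called lower with the batch block, and 2 higher and 3 lower without batch 1 of day 0. Without any other batch 0 were lower, and 0 were higher without batch 1 or 3 of day 10.

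**Figure D2:**
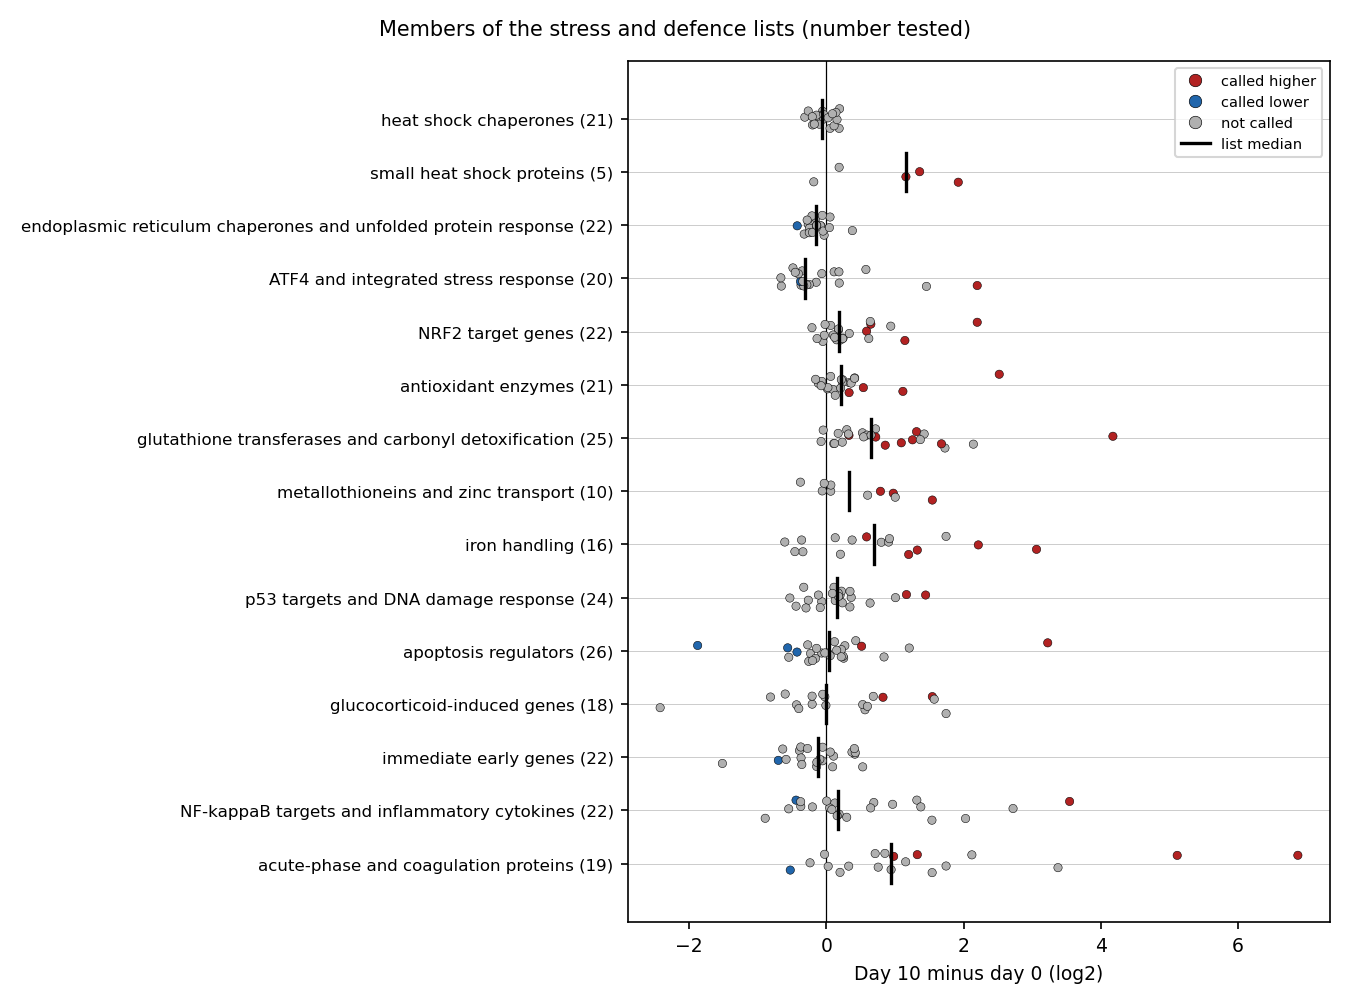
Differences of the tested members of 15 stress and defence lists, day 10 minus day 0 (x axis, log2), 1 point per gene, with the number tested after each list's name (y axis). Red points were called higher, blue lower and grey not called, and the black bar is the list's median. The heat shock chaperones lie within -0.31 to 0.19, while the list of glutathione transferases and carbonyl enzymes reaches 4.18, the value of the carbonyl reductase Cbr2.

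Enzymes that handle oxidants, aldehydes and foreign compounds rose in larger numbers. Of 25 glutathione transferases and carbonyl enzymes, 8 were called higher (32%, against 7.19% of all genes) and 0 lower, with a median of 0.65. Cbr2, a carbonyl reductase, rose from -5.30, -2.47 and -0.75 to 0.70, 1.69 and 1.92 (4.18 ± 0.92, 18.1-fold, adjusted p = 0.0249). Mgst1, a microsomal glutathione transferase, rose from 0.40, 0.68 and 0.93 to 2.26, 2.33 and 2.46 (1.68 ± 0.13, 3.2-fold, adjusted p = 0.00124). The arrays of the days were apart for both, and the 6 arrays of day 10 lay closer together than those of day 0.

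The cytosolic transferase Gstm6 rose from -1.62, -0.80 and -0.50 to 0.09, 0.44 and 0.77 (1.31 ± 0.22, 2.49-fold, adjusted p = 0.011). Gsta3 rose from -3.15, -2.39 and -0.71 to -2.05, -0.92 and 0.10 (1.26 ± 0.35, 2.39-fold, adjusted p = 0.0302), and its days overlapped. The genes Gstm6 and Gsta3 each belong to a family of close copies, so their probes may share signal with other members. Smaller rises were called for Gstk1 (1.09), Gsta4 (0.86), the epoxide hydrolase Ephx1 (0.72) and the carbonyl reductase Cbr1 (0.33, adjusted p = 0.0604 with the batch block). The count was 12 with the batch block, 11 without batch 1 of day 0, 4 without batch 2 of day 10, 3 without batch 2 or 3 of day 0 or batch 1 of day 10, and 2 without batch 3 of day 10.

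Among 22 NRF2 targets, 4 were called higher (18.2%) and 0 lower, with a median of 0.19. Heme oxygenase (Hmox1) rose from 1.96, 2.20 and 2.80 to 3.01, 3.53 and 3.76 (1.15 ± 0.19, 2.21-fold, adjusted p = 0.011), with the days apart. Biliverdin reductase B (Blvrb), which acts after heme oxygenase, rose by 0.65 ± 0.16 (adjusted p = 0.0354), and ferritin heavy chain (Fth1), which stores the iron that heme releases, by 0.59 ± 0.09 (adjusted p = 0.00768). Slc7a11, given above, was the fourth. The quinone reductase Nqo1, a much used readout of NRF2, had -1.67, -1.15 and -0.71 against -0.63, -0.28 and 0.39 and was not called (0.94 ± 0.43, adjusted p = 0.178). The count was 6 with the batch block, 3 or 4 without a batch of day 0, 3 without batch 2 of day 10, and 2 without batch 1 or 3 of day 10.

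The upstream windows of the 2 transferase genes that hold the core of the antioxidant response element are shown, with each TGACNNNGC, read on either strand, in capitals.
Mgst1, chr6:138140277-138140526, plus strand: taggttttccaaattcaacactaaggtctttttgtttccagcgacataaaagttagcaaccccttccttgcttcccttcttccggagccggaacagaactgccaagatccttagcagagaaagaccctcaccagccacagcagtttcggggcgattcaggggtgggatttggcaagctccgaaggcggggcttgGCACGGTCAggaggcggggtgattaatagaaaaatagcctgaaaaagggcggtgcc
Gsta3, chr1:21240335-21240584, plus strand: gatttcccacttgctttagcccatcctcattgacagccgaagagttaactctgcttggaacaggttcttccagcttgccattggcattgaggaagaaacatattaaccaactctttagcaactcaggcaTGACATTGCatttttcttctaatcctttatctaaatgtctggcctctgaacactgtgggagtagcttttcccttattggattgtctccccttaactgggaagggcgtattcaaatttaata
Of 13 NRF2 and detoxification genes looked up, 11 had a window, and the core was in 2 of them, Mgst1 and Gsta3, against 10.2% of all windows. The core was not in the windows of Slc7a11, Nqo1 or Cbr2.

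Antioxidant enzymes rose in 4 of 21 cases (19%), with 0 called lower and a median of 0.22. Gpx3, a secreted glutathione peroxidase, rose from -1.05, -0.79 and -0.04 to 1.64, 1.96 and 2.11 (2.52 ± 0.31, 5.73-fold, adjusted p = 0.00306). Selenop, the protein that carries selenium in plasma, rose from 4.85, 5.56 and 5.74 to 6.33, 6.54 and 6.71 (1.12 ± 0.28, 2.17-fold, adjusted p = 0.0367). Both genes, and another selenoprotein, the methionine sulfoxide reductase Msrb1 (0.54 ± 0.09, adjusted p = 0.0118), had no overlap between the days. The peroxiredoxin Prdx5 rose by 0.33 ± 0.08 (adjusted p = 0.0348). The count was 3 without batch 1 of day 0, 2 without any one of 4 other batches, and 1 without batch 3 of day 10.

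Metallothioneins bind zinc and copper, and glucocorticoids, zinc and oxidants induce them. Mt2 rose from 4.54, 5.72 and 6.10 to 6.78, 6.99 and 7.18 (1.55 ± 0.33, 2.92-fold, adjusted p = 0.0232), and Mt1 from 6.26, 7.26 and 7.35 to 7.79, 7.96 and 8.06 (0.98 ± 0.26, 1.97-fold, adjusted p = 0.0433). In both genes the same 2 arrays of day 0 lay below the other 4, and all 6 arrays of day 10 lay above. Those 2 arrays form batch 1 of day 0 by the value table. The other member, Mt3, had -0.15, 0.75 and 1.18 against 0.91, 1.28 and 1.48 and was not called (0.60, adjusted p = 0.163). The zinc importer Slc39a14 rose by 0.79 ± 0.17 (adjusted p = 0.0234). In all, 3 of 10 tested genes of metallothioneins and zinc transport were called higher (30%), against 3 without batch 1 of day 0, 1 without batch 2 or 3 of day 0 or batch 2 of day 10, and 0 without batch 1 or 3 of day 10.

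The upstream windows of the 3 metallothionein genes, which lie near each other on chromosome 8, are shown with the core of the metal response element in capitals (TGCACNC or TGCGCNC, on either strand).
Mt1, chr8:94178839-94179088, plus strand: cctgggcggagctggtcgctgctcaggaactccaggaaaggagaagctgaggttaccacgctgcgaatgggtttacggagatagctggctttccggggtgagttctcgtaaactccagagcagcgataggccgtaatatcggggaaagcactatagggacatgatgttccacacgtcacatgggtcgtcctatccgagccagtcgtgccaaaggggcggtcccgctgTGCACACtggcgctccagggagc
Mt2, chr8:94172368-94172617, plus strand: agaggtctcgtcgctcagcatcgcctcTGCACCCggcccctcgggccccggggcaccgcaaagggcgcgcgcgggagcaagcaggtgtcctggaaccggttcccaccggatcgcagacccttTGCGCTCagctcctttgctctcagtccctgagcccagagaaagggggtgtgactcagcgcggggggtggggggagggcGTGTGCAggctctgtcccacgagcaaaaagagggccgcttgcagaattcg
Mt3, chr8:94152357-94152606, plus strand: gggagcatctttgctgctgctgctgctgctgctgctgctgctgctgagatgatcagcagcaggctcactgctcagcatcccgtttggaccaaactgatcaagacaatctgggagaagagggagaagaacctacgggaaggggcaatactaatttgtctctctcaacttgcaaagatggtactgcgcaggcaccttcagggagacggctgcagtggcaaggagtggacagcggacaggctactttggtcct
Mt1 held 1 match, Mt2 held 3 and Mt3 held 0. Here too, a match describes letters in a window and says nothing of binding in these cultures. The core is in 21.4% of all windows of this length.

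**Figure D3:**
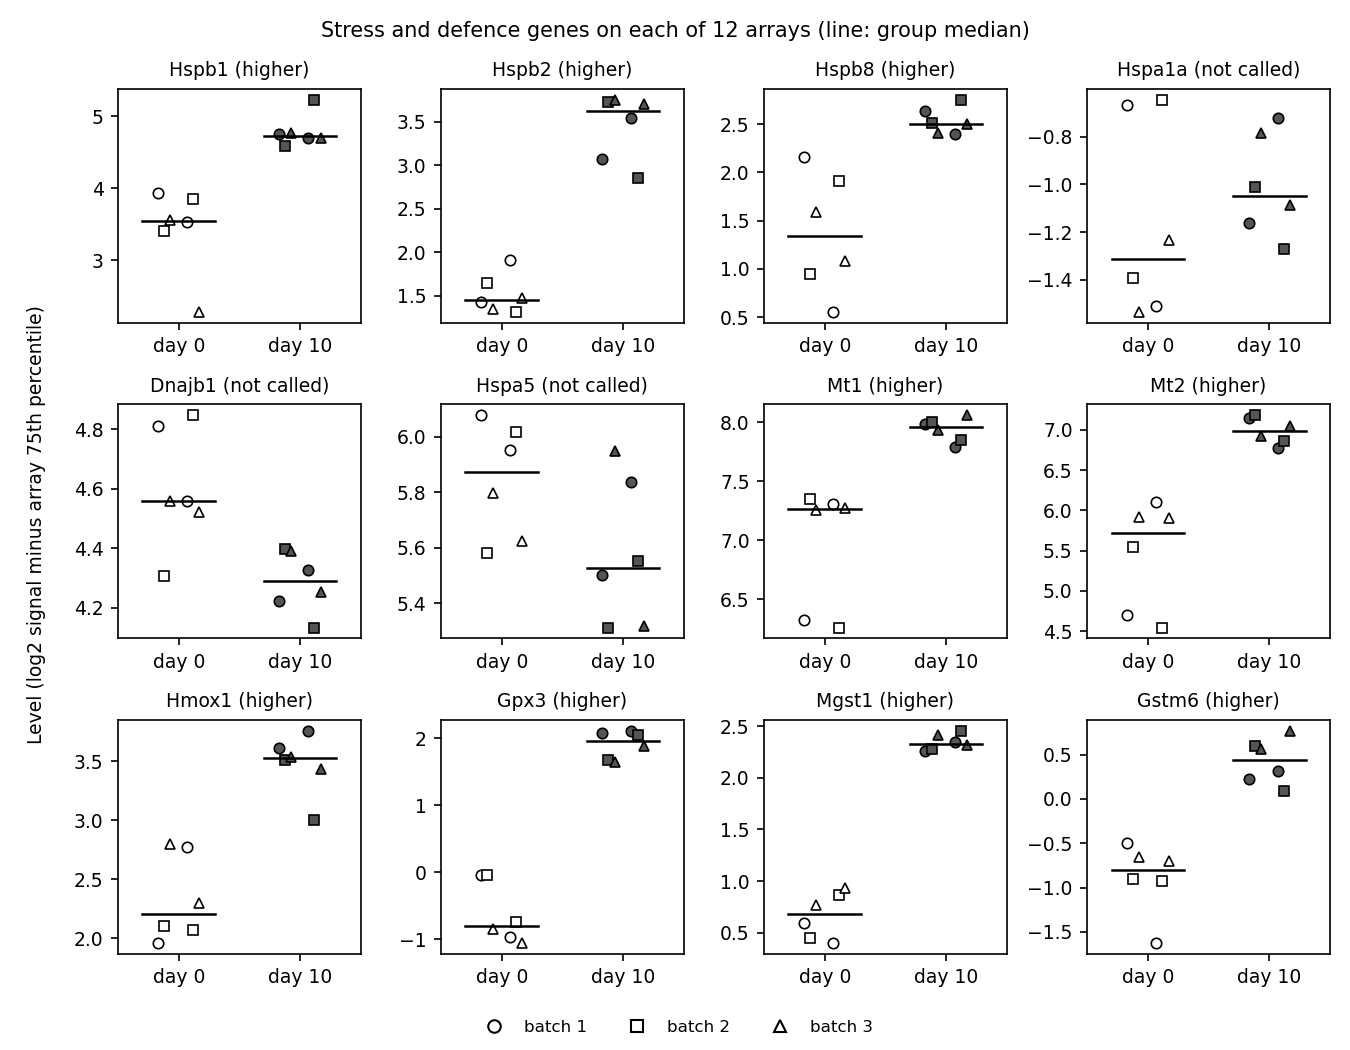
Level of 12 stress and defence genes (y axis, log2 signal minus the array's 75th percentile) on each of the 6 arrays of day 0 (open) and of day 10 (filled), with batches by marker as the array files give them, and lines at the group medians. The days do not overlap for Hspb1, Hspb2, Hspb8, Mt1, Mt2, Hmox1, Gpx3, Mgst1 and Gstm6, and overlap for Hspa1a, Dnajb1 and Hspa5.

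Genes of iron handling were called higher in 5 of 16 cases (31.2%), with 0 lower and a median of 0.69. Slc11a1, a metal pump of phagosomes, rose from -4.06, -2.83 and -1.99 to -0.80, 0.07 and 0.81 (3.06 ± 0.50, 8.36-fold, adjusted p = 0.00987). Cybrd1, a ferric reductase, rose from -3.14, -2.16 and -1.12 to -0.98, 0.02 and 0.90 (2.21 ± 0.47, 4.64-fold, adjusted p = 0.0216). Both were apart between the days on all arrays. Ceruloplasmin (Cp), a copper protein that oxidises iron on its export, rose by 1.33 ± 0.30 (adjusted p = 0.0253), and transferrin (Trf), which carries iron to cells, rose from 4.17, 4.77 and 5.18 to 5.74, 5.96 and 6.05 (1.2 ± 0.17, adjusted p = 0.00211). The count was 7 with the batch block, 6 without batch 1 of day 0, 5 without batch 2 of day 10, 4 without batch 1 of day 10 and 3 without batch 2 or 3 of day 0 or batch 3 of day 10. Slc11a1 and Hmox1 are active in macrophages, whose marker levels above also stood higher on day 10, and the part of those cells in these results was not tested.

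Death and damage genes were called near the rate of all genes. Among 24 p53 targets 2 were called higher (8.3%) and 0 lower: the stress sensors Gadd45g, from 1.78, 2.47 and 3.04 to 3.17, 3.84 and 4.57 (1.45 ± 0.36, adjusted p = 0.0376), and Gadd45a, from 0.15, 1.18 and 1.39 to 1.80, 2.0 and 2.64 (1.17 ± 0.30, adjusted p = 0.0408). Gadd45a was not called with the batch block (adjusted p = 0.055), and the count was 1 without batch 2 of day 10 and 0 without batch 2 or 3 of day 0 or batch 1 or 3 of day 10. The p53 target and cell cycle inhibitor Cdkn1a had 2.88, 3.34 and 3.73 against 3.35, 3.69 and 3.85 (adjusted p = 0.234).

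Of 26 apoptosis regulators, 2 were called higher (7.7%) and 3 lower (11.5%). Hrk, a killer protein of the BH3 class that neurons make when growth factor is withdrawn, fell from -2.69, -2.07 and -1.41 to -4.73, -4.07 and -2.98 (-1.88 ± 0.45, 3.67-fold lower, adjusted p = 0.0314). Bcl2l11, known as Bim and of the same class, fell by 0.56 ± 0.15 on the log2 scale (adjusted p = 0.0405), and Casp2 by 0.43. Casp1, the inflammasome's protease, rose from -3.08, -2.12 and -1.86 to 0.13, 1.16 and 1.43 (3.23 ± 0.28, 9.35-fold, adjusted p = 0.00164), and Cflar, a brake on caspase 8, rose by 0.51 ± 0.13, with 1 of its 3 probes of opposite sign. With the batch block Hrk (adjusted p = 0.0524), Bcl2l11 (0.0617) and Cflar (0.0522) lost their calls, which left 1 lower and 2 higher, since Birc3, an inhibitor of apoptosis, was called only there. With 1 batch left out, 1 to 3 were called higher and 0 to 3 lower, with 0 lower without batch 2 or 3 of day 0 or batch 3 of day 10. The levels of the macrophage markers stood higher beside Casp1, and their part in it was not tested.

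Genes that glucocorticoids induce did not share a direction: 2 of 18 were called higher (11.1%), Mt2 and glutamine synthetase (Glul, 0.83 ± 0.19, adjusted p = 0.0283), 0 lower, and the median was -0.01. Fkbp5, a widely used glucocorticoid target, had 1.61, 1.82 and 2.03 against 0.98, 1.28 and 1.40, with no overlap but no call (-0.60 ± 0.22, adjusted p = 0.1). The count ranged from 0 without batch 3 of day 0, batch 2 or batch 3 of day 10 to 5 without batch 1 of day 0. Of 22 immediate early genes, 1 was called lower, Maff (-0.70 ± 0.18, adjusted p = 0.0383), and 0 higher. Without any batch but batch 1 of day 0, 0 were lower. Fos had 1.61, 2.12 and 3.16 against 2.04, 2.30 and 2.52, and Egr1, a gene that handling can induce, had 1.14, 1.64 and 5.59 against 0.21, 0.84 and 2.83. Neither was called (adjusted p of 0.938 and 0.382).

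Of 22 NF-kappaB targets and cytokines, 1 was called higher (4.5%, against 7.19% of all genes) and 1 lower (4.5%, against 7.66%). The neutrophil chemokine Cxcl5 rose from -7.38, -5.21 and -4.36 to -3.71, -2.17 and -0.20 (3.55 ± 0.79, adjusted p = 0.025), and was well above background on 3 arrays of day 0. Nfkb1, a subunit of the factor itself, fell by 0.44 ± 0.11 on the log2 scale (adjusted p = 0.0351). Il1a, Il1b and Cxcl2 did not pass the filter on dim signals. The higher count was 2 with the batch block, 3 without batch 1 of day 0, 1 without batch 2 of day 10 and 0 without the others. Nfkb1 was called with none of the batches left out.

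Fgb and F5, plasma proteins of the liver, rose from very low levels. Of 19 acute-phase and coagulation genes tested, 4 were called higher (21.1%) and 1 lower, the plasminogen activator Plat (-0.52). Fgb and F5 passed the filter on dim signals only through days after day 0. Such passing favours rises, so the share of 21.1% is not read as a result about the list. The fibrinogen chain Fgb, not well above background on any array of day 0, had -4.76, 0.36 and 0.86 on day 10 and was at least 31.5-fold higher there (adjusted p = 0.00587). This bound sets the day 10 mean against each day 0 array's lowest signal that was well above background. Coagulation factor V (F5), well above background on 1 array of day 0, rose from -6.53, -6.01 and -5.50 to -1.40, -0.78 and -0.61 (5.11 ± 0.65, adjusted p = 0.00405). The other 2 were ceruloplasmin and the antiprotease Serpina3n (0.98 ± 0.27, adjusted p = 0.0427, or 0.0563 with the batch block). The liver genes Fga, Hpx, Orm1, Orm2, Itih4, Lrg1 and Serpinf2 did not pass the filter on dim signals. The count was 6 without batch 1 of day 0, 3 or 4 without batch 1 or 2 of day 10, and 2 without batch 2 or 3 of day 0 or batch 3 of day 10, which also lost the lower call.

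Lysosomal genes rose in number, and no subunit of the constitutive proteasome was called. Of 32 lysosome genes, 8 were called higher (25%), 0 lower, 28 lay above 0, and the median was 0.36. Gpnmb, a lysosomal glycoprotein of macrophages and pigment cells, rose from -1.41, -0.80 and 0.43 to 1.01, 2.18 and 3.19 (2.91 ± 0.52, 7.54-fold, adjusted p = 0.0126). Cathepsin D (Ctsd), a main lysosomal protease of most cells, rose from 5.96, 6.24 and 6.46 to 7.03, 7.05 and 7.16 (0.84 ± 0.15, 1.79-fold, adjusted p = 0.0128), and Ctsz from 3.64, 3.85 and 4.07 to 4.59, 4.72 and 4.85 (0.86 ± 0.19, adjusted p = 0.0243). The days were apart for these 3 genes. Rises were also called for the sialidase Neu1 (0.73), Ctsb (0.66), Ctsl (0.56) and the proton pump subunit Atp6v0d2 (2.92 ± 0.53, well above background on 1 array of day 0). The count was 10 with the batch block and 10 without batch 1 of day 0, 6 without batch 2 of day 0, 4 without batch 3 of day 0 or batch 1 or 2 of day 10, and 2 without batch 3 of day 10. Macrophage marker levels stood higher beside the lysosome list, with Lyz2 at -0.74, -0.50 and 0.41 on day 0 and 2.13, 2.96 and 3.63 on day 10, and their part was not tested.

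Of 31 subunits of the constitutive proteasome, 0 were called by limma, 0 with the batch block and 1 higher when only the array files' batches were used, and the differences ran from -0.18 to 0.27. The catalytic subunit Psmb5 had 6.56, 6.70 and 6.80 against 6.63, 6.72 and 6.85. Of 5 genes of the immunoproteasome, the form that interferon induces, 2 were called higher (40%, against 7.19% of all genes): Psmb8 from -0.59, -0.40 and 0.64 to 0.75, 1.33 and 1.39 (1.44 ± 0.26, adjusted p = 0.0133) and Psmb9 from -1.58, -1.39 and -0.54 to -0.24, 0.01 and 0.41 (1.22 ± 0.32, adjusted p = 0.0423). That count was 2 without batch 1 of day 0, 1 without batch 2 of day 0 or batch 1 or 2 of day 10, and 0 without batch 3 of either day.

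Autophagy genes were called higher in 2 of 21 cases (9.5%) and lower in 1. Bnip3, a receptor for mitophagy that hypoxia induces, rose from 4.93, 5.52 and 5.77 to 5.88, 6.19 and 6.43 (0.72 ± 0.12, adjusted p = 0.00534), and Gabarapl1, which builds the autophagosome, by 0.45 ± 0.11 (adjusted p = 0.019). Wipi1, which acts early in the same process, fell by 0.46 ± 0.11 on the log2 scale (adjusted p = 0.0331). The adaptor Sqstm1, known as p62, had 2.92, 3.26 and 3.39 against 3.25, 3.37 and 3.49 (adjusted p = 0.302). With the batch block 3 were called higher, against 1 without batch 2 of day 0 or batch 2 or 3 of day 10. The lower call was kept in number only without batch 1 of day 0.

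Few subunits of the respiratory chain were called, at rates near those of all genes. Of 27 complex I subunits, 24 lay above 0 and 2 were called higher (7.4%): Ndufb2 (0.45 ± 0.08, adjusted p = 0.0117) and Ndufs4 (0.29 ± 0.08, adjusted p = 0.0464, or 0.0564 with the batch block, which left 1). Of 30 subunits of complexes II to IV and ATP synthase, 3 were called higher (10%). Cox7a1, the form of heart and muscle, rose from 0.63, 0.91 and 1.31 to 2.03, 2.59 and 2.86 (1.56 ± 0.20, 2.95-fold, adjusted p = 0.00403). Cox4i2, a form that low oxygen induces, rose from -1.05, -0.15 and -0.04 to 0.28, 0.65 and 0.90 (0.91 ± 0.16, adjusted p = 0.00985), and the ubiquitous Cox6c rose by 0.34 ± 0.09 (adjusted p = 0.0352). The arrays of the days were apart for all 5 genes. Counts were 0 to 2 for complex I with 1 batch left out (0 without batch 3 of day 10, 1 without 4 others), and 2 for the other complexes whichever batch was left out. The mitochondrial coactivator Ppargc1a had -0.15, 1.0 and 1.48 against 0.70, 1.07 and 1.23 (adjusted p = 0.698).

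Of 30 genes of fatty acid oxidation and lipid storage, 1 was called higher (3.3%) and 2 lower (6.7%). The lipid droplet protein Plin4 rose from -5.19, -4.32 and -3.70 to -2.12, -0.84 and 0.11 (3.39 ± 0.52, adjusted p = 0.00809), with 5 arrays of day 0 well above background. The glial fatty acid carrier Fabp7, a marker of satellite glia and Schwann precursors, fell from 1.48, 2.19 and 3.17 to 0.42, 0.97 and 1.12 (-1.44 ± 0.35, adjusted p = 0.0342). With 1 batch left out, 1 or 2 were called higher, and lower 0 without any batch of day 10 and 1 without batch 2 of day 0.

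Of 17 circadian clock genes, 1 was called lower (5.9%, against 7.66% of all genes) and 1 higher (5.9%, against 7.19%). Arntl, known as Bmal1 and the activating arm of the clock, fell from 0.20, 0.63 and 1.17 to -0.92, -0.25 and -0.11 (-0.99 ± 0.22, adjusted p = 0.0238). Dbp, an output gene that Arntl activates, rose from 3.68, 3.81 and 4.11 to 4.49, 4.77 and 5.11 (0.95 ± 0.21, adjusted p = 0.0249). Both were apart between the days. The hour at which cultures were taken was not among the labels used here. The higher call was lost without batch 2 of day 0 or batch 1 or 3 of day 10. The lower count was 2 without batch 1 of day 0, 1 without batch 1 of day 10 and 0 without the others.

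**Figure D4:**
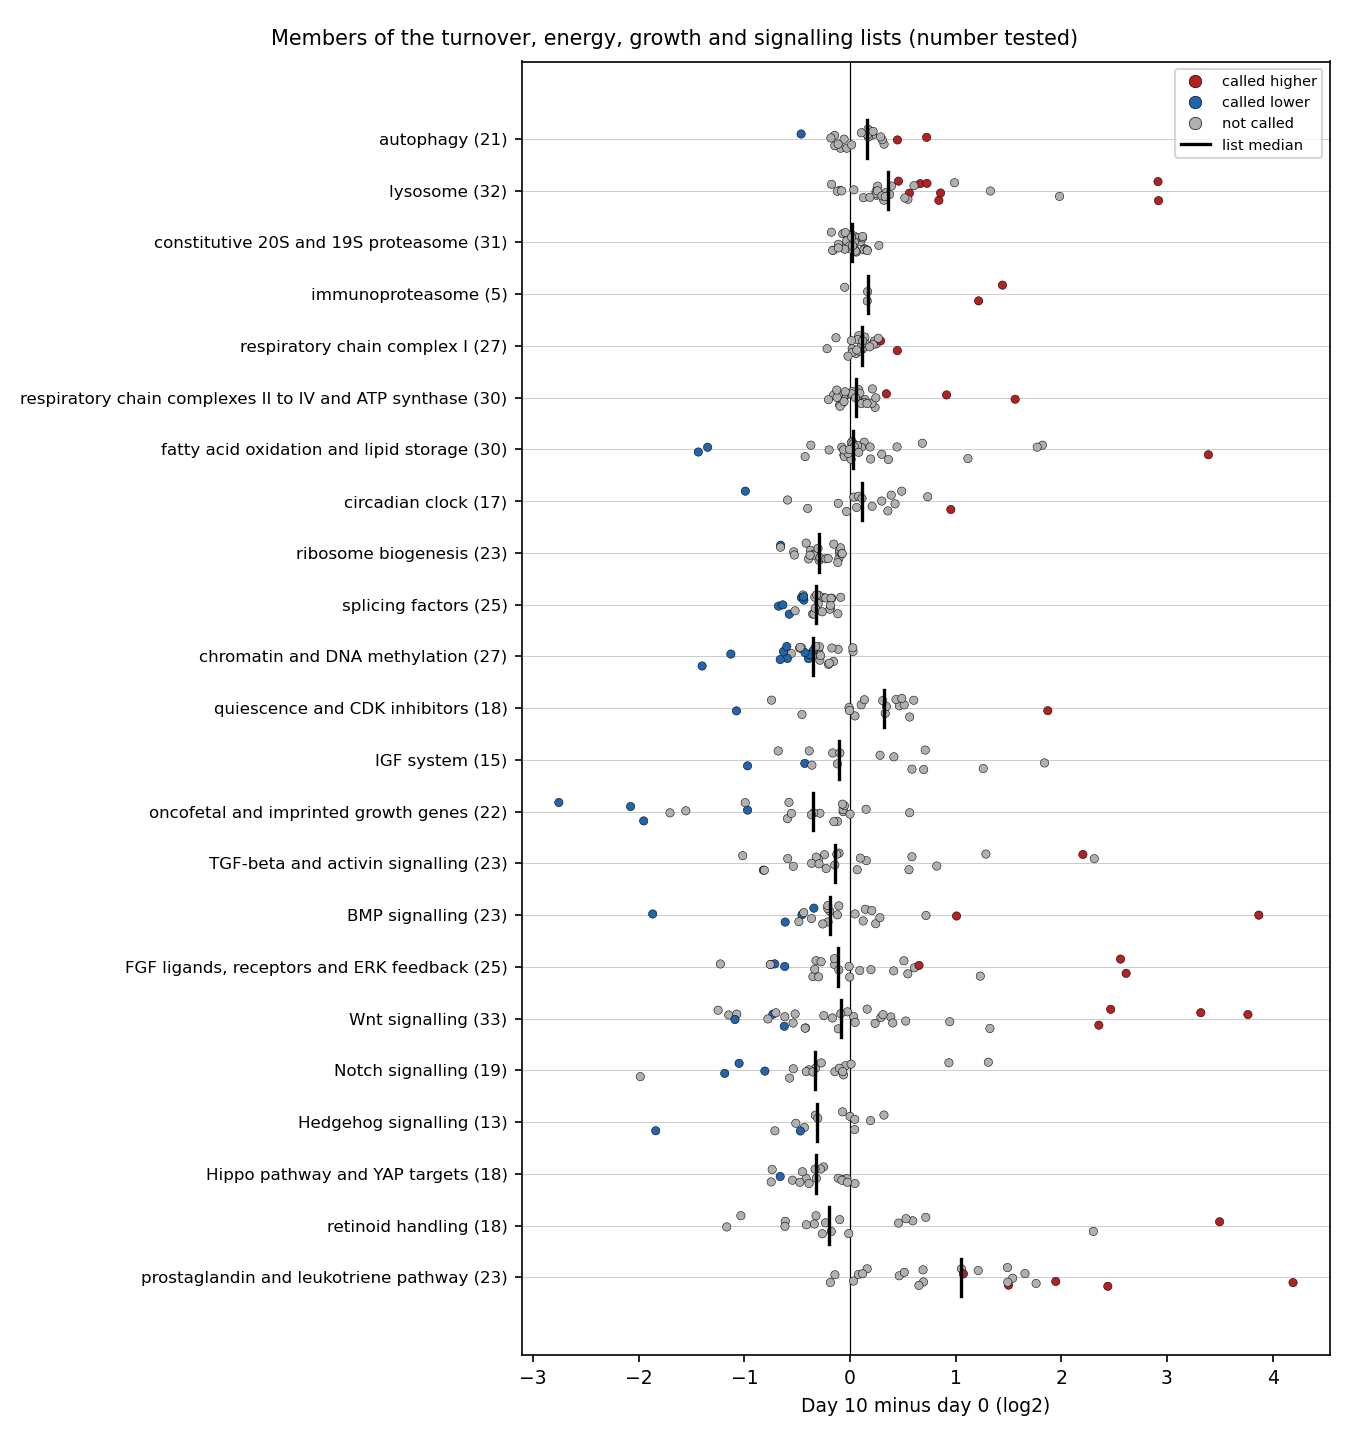
Differences of the tested members of 23 lists on protein turnover, energy, growth and signalling, day 10 minus day 0 (x axis, log2), 1 point per gene, with the number tested after each list's name (y axis). Red points were called higher, blue lower and grey not called, and the black bar is the list's median. All members of ribosome biogenesis and of the splicing factors lie below 0, and 21 of 23 genes of the prostaglandin list lie above it.

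Every gene tested of splicing and of ribosome biogenesis had a level that was lower on day 10, by at most 0.68 on the log2 scale. All 25 splicing factors had a difference below 0 (median -0.32) and 6 were called lower (24%, against 7.66% of all genes). Hnrnpd, which also controls the decay of messenger RNA, fell from 2.95, 3.39 and 3.80 to 2.62, 2.69 and 2.75 (-0.68 ± 0.14, adjusted p = 0.0223), and Ptbp1, a repressor of neuronal exons, from 2.63, 3.00 and 3.42 to 2.19, 2.35 and 2.45 (-0.64 ± 0.15, adjusted p = 0.0314). The arrays of day 10 lay below those of day 0 for both. Srsf2 (-0.57), Hnrnpk (-0.46), U2af1 (-0.44) and Sf3b3 (-0.44) were the others. The count was 7 without batch 1 of day 0 and 0 without any other batch.

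All 23 genes of ribosome biogenesis lay below 0 as well (median -0.29), with 1 called lower (4.3%, against 7.66% of all genes). That was Myc, the transcription factor that drives ribosome production, from -0.23, 0.05 and 0.51 to -0.80, -0.56 and -0.24 (-0.66 ± 0.18, adjusted p = 0.0447). The count was 4 with the batch block, 12 with the array files' batches alone, 6 without batch 1 of day 0 and 0 without any other batch.

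Of 27 chromatin and DNA methylation genes, 10 were called lower (37%) and 0 higher, with a median of -0.35. Uhrf1, which recruits DNA methylation to replicating DNA, fell from 2.54, 3.03 and 3.44 to 1.40, 1.68 and 1.89 (-1.40 ± 0.26, 2.64-fold lower, adjusted p = 0.0138). Hmgb2, a chromatin protein of dividing cells, fell from 3.55, 3.80 and 3.94 to 2.29, 2.78 and 2.95 (-1.13 ± 0.22, adjusted p = 0.0164). The Polycomb methylase Ezh2 (-0.66 ± 0.16, adjusted p = 0.033) and the maintenance methylase Dnmt1 (-0.63 ± 0.12, adjusted p = 0.0155) fell with no overlap between the days. Cbx5 (-0.59), Hmgb3 (-0.60), Smarca5 (-0.43), Hdac1 (-0.39), Rbbp4 (-0.39, adjusted p = 0.0514 with the batch block) and Kdm1a (-0.35) made up the rest. Uhrf1, Hmgb2, Ezh2 and Dnmt1 are known to be high in dividing cells. The count was 11 without batch 1 of day 0, 4 without any one of 4 other batches, and 1 without batch 3 of day 10.

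Among 18 genes of quiescence and cell cycle inhibition, Cdkn2a, the locus of p16 and p19, rose from 0.63, 1.17 and 1.49 to 2.49, 3.03 and 3.36 (1.87 ± 0.19, 3.66-fold, adjusted p = 0.00243). Rbl1, a retinoblastoma relative of proliferating cells, fell from 0.10, 0.28 and 0.63 to -1.15, -0.60 and -0.55 (-1.08 ± 0.18, adjusted p = 0.011). These were the 1 higher and 1 lower call of the list (5.6% each, against 7.19% and 7.66% of all genes). Each count was kept or raised to 2 with 1 batch left out.

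Oncofetal genes, which embryos express and adult tissue silences, were called lower in 4 of 22 cases (18.2%) with 0 higher and 20 below 0. The RNA-binding protein Igf2bp3 fell from -0.86, -0.37 and -0.09 to -3.57, -3.30 and -2.63 (-2.76 ± 0.33, 6.76-fold lower, adjusted p = 0.00352). The imprinted gene Mest fell from 2.11, 3.40 and 4.28 to 1.02, 1.34 and 1.71 (-1.95 ± 0.31, adjusted p = 0.00899), and the imprinted gene Magel2 from -3.61, -3.11 and -1.52 to -5.86, -4.90 and -4.11 (-2.08 ± 0.41, adjusted p = 0.0174), the latter well above background on 3 arrays of day 10. The days were apart for these 3. Grb10, an imprinted brake on insulin signalling, fell by 0.97 ± 0.25 on the log2 scale (adjusted p = 0.0413, or 0.0563 with the batch block). The count was 6 with the block, 7 without batch 1 of day 0, 3 without batch 1 or 2 of day 10, and 2 without batch 2 or 3 of day 0 or batch 3 of day 10. Of 15 genes of the IGF system, 2 were called lower (13.3%, against 7.66% of all genes), Grb10 and the receptor Igf1r (-0.43 ± 0.11, adjusted p = 0.0434). That count was 3 without batch 1 of day 0 and 0 without any other batch.

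Of 33 Wnt genes tested, 4 were called higher (12.1%, against 7.19% of all genes) and 3 lower (9.1%, against 7.66%). The 4 encode secreted proteins of the Dkk, Sfrp and Wif families, a grouping made after their values were seen. Of the other tested members of these families, Sfrp1 had a difference of -1.25 and Sfrp5 of -0.11, and neither was called. Dkk3 rose from -0.24, 0.98 and 1.63 to 4.17, 4.47 and 4.97 (3.77 ± 0.33, 13.6-fold, adjusted p = 0.0018). Sfrp4 rose from -2.26, -1.30 and -0.51 to 1.1, 1.96 and 3.04 (3.32 ± 0.91, 9.99-fold, adjusted p = 0.0476), and Frzb, also known as Sfrp3, from -3.62, -3.04 and -1.93 to -1.53, -0.72 and 0.71 (2.35 ± 0.50, 5.12-fold, adjusted p = 0.0221). The days were apart for these 3 genes. Wif1, which binds Wnt ligands, rose from -2.32, -0.95 and 0.71 to 0.27, 1.75 and 2.59 (2.47 ± 0.63, 5.53-fold, adjusted p = 0.0389), with an overlap of the days. The 3 genes called lower were the R-spondin receptor Lgr5 (-1.09 ± 0.19, adjusted p = 0.0122), the Wnt receptor Fzd3 (-0.73 ± 0.16, adjusted p = 0.0217) and the nuclear repressor Tcf7l1 (-0.62 ± 0.16, adjusted p = 0.0258).

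Axin2, a common readout of Wnt signalling, had -2.71, -2.30 and -2.0 on day 0 and -3.27, -2.99 and -2.62 on day 10 (-0.62 ± 0.18), which was not called (adjusted p = 0.0584) but was with the batch block (0.0445). With the block 4 Wnt genes were called higher and 6 lower. Higher calls were 3 without batch 1 of day 0 or batch 2 of day 10 and 1 without the others, and lower calls were 5 without batch 1 of day 0, 2 without batch 2 or 3 of day 0 or batch 2 of day 10, and 1 without batch 1 or 3 of day 10. The ligands Wnt2 and Wnt2b and the inhibitors Dkk1, Dkk2 and Sfrp2 did not pass the filter on dim signals.

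Of 23 BMP genes tested, 2 were called higher (8.7%, against 7.19% of all genes) and 4 lower (17.4%, against 7.66%). Grem1, which traps BMP ligands, rose from -7.81, -5.97 and -2.68 to -3.55, -1.75 and -0.48 (3.87 ± 0.69, adjusted p = 0.013), with 2 arrays of day 0 well above background and an overlap of the days. The type I receptor Acvrl1, best known from endothelium, rose by 1.01 ± 0.27 (adjusted p = 0.0431). Among the lower calls, Smad6, an inhibitory target of BMP signals, fell from 0.06, 0.57 and 1.35 to -2.15, -1.1 and -0.31 (-1.87 ± 0.42, 3.65-fold lower, adjusted p = 0.0251). Id1, a direct BMP target, fell from 2.56, 2.85 and 3.09 to 2.0, 2.22 and 2.43 (-0.61 ± 0.13, adjusted p = 0.0186). The receptor Acvr1 (-0.45) and the transducer Smad5 (-0.34) were also called lower. The higher and lower counts were 0 and 0 without batch 3 of day 10 and 2 and 5 without batch 1 of day 0. Without the others they were 1 higher and 1 to 3 lower.

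Of 23 TGF-beta and activin genes, 1 was called higher (4.3%, against 7.19% of all genes) and 1 lower (4.3%, against 7.66%). Inhbb, a subunit of activin B and inhibin B, rose from -2.98, -1.71 and -1.18 to -0.90, 0.64 and 1.11 (2.20 ± 0.42, 4.61-fold, adjusted p = 0.0159), with the days apart. Smad3, which carries TGF-beta and activin signals to the nucleus, fell from 2.20, 2.44 and 2.90 to 1.43, 1.64 and 1.88 (-0.82 ± 0.17, adjusted p = 0.0125), also with the days apart. The batch block gave 2 higher and 1 lower in this list. Neither was called without batch 3 of day 10, and 0 were higher without batch 3 of day 0.

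Of 25 FGF genes tested, 3 were called higher (12%, against 7.19% of all genes) and 2 lower (8%, against 7.66%). Fgf9 rose from -2.65, -2.47 and -1.94 to -0.14, 0.23 and 0.51 (2.61 ± 0.25, 6.12-fold, adjusted p = 0.00209), with the days far apart. Fgf10 rose from -6.79, -6.07 and -4.50 to -5.21, -2.93 and -2.44 (2.56 ± 0.61, adjusted p = 0.0314), with 2 arrays of day 0 well above background. Fgf1, an abundant ligand of sensory neurons, rose by 0.65 ± 0.18 (adjusted p = 0.047). The transcription factor Etv4, a target of FGF signals through ERK, fell by 0.71 ± 0.19 on the log2 scale (adjusted p = 0.042), and the receptor Fgfr3 by 0.62 ± 0.17 (adjusted p = 0.0436). With 1 batch left out 1 to 3 were higher (1 without batch 2 or 3 of day 0 or batch 1 or 3 of day 10) and 0 or 1 lower (1 without batch 1 or 2 of day 0).

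**Figure D5:**
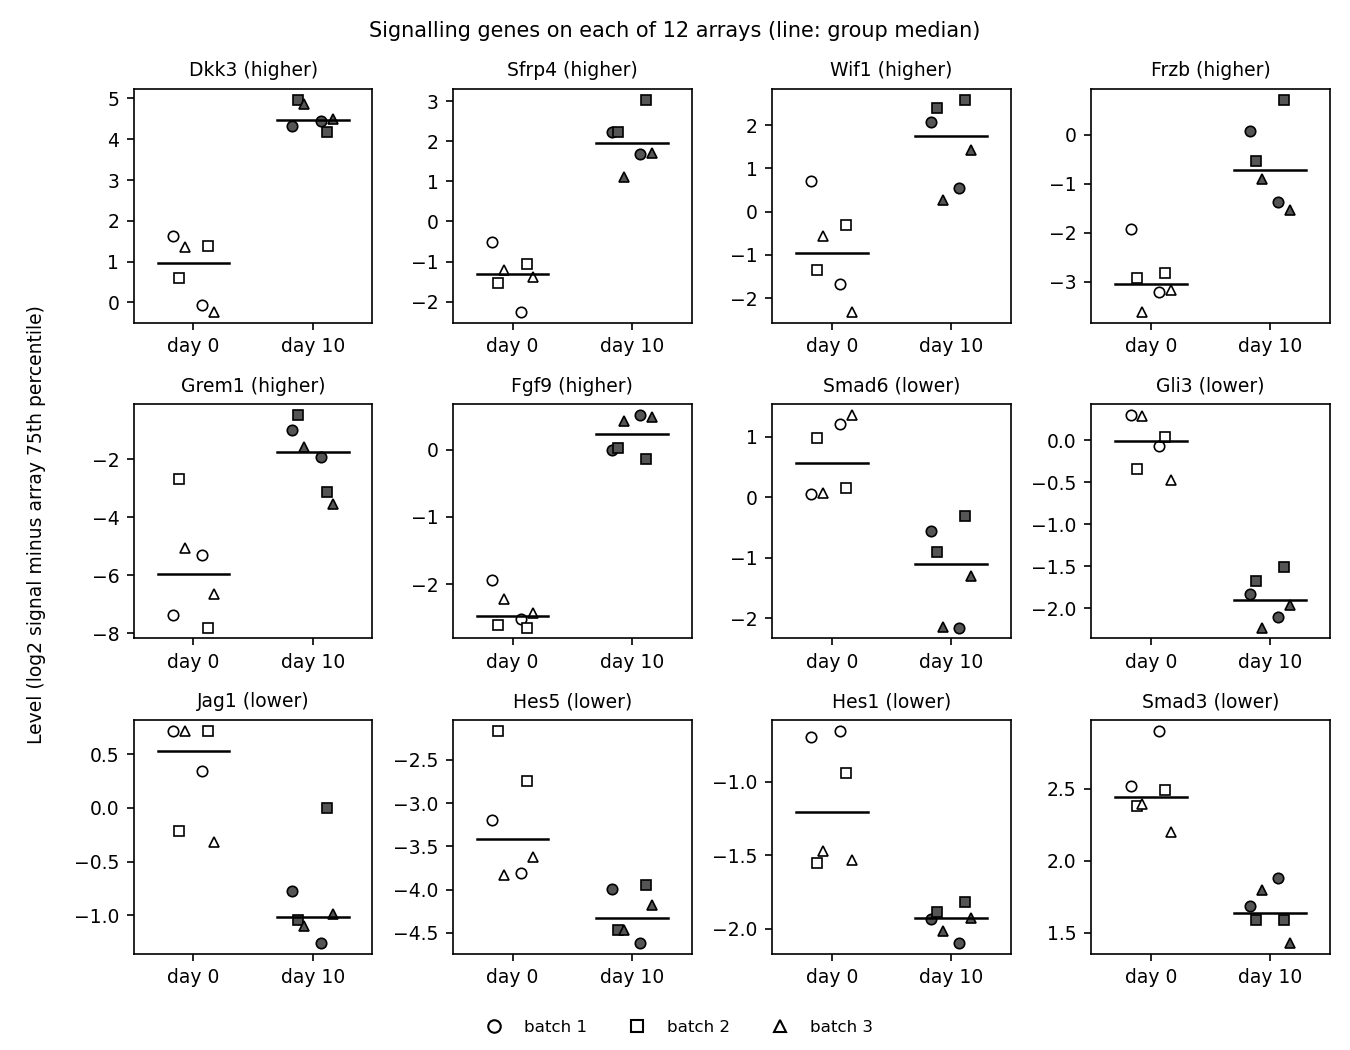
Level of 12 signalling genes (y axis, log2 signal minus the array's 75th percentile) on each of the 6 arrays of day 0 (open) and of day 10 (filled), with batches by marker as the array files give them, and lines at the group medians. Dkk3, Sfrp4, Frzb and Fgf9 rose, and Smad6, Gli3, Hes5, Hes1 and Smad3 fell, with no overlap between the days. The days overlapped for Wif1, Grem1 and Jag1.

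Notch genes were called lower in 3 of 19 cases (15.8%) with 0 higher, and 16 lay below 0 (median -0.33). They were a ligand and 2 target repressors. Jag1, the ligand, fell from -0.32, 0.53 and 0.72 to -1.26, -1.02 and 0.00 (-1.19 ± 0.32, adjusted p = 0.0464), with 1 array of day 10 among those of day 0. Hes5 fell from -3.83, -3.41 and -2.16 to -4.62, -4.32 and -3.94 (-1.05 ± 0.30, 2.07-fold lower, adjusted p = 0.0385), and Hes1 from -1.55, -1.21 and -0.65 to -2.10, -1.93 and -1.82 (-0.81 ± 0.19, 1.75-fold lower, adjusted p = 0.0283). The days were apart for both. With the batch block 5 were called lower. Without batch 3 of day 0 there were 2, without batch 1 or 3 of day 10 there were 0, and without the others 1. The ligands Dll1 and Dll4 did not pass the filter on dim signals.

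The upstream window of Hes5 is shown because the Notch cofactor RBPJ binds TGGGAA, in capitals on either strand.
Hes5, chr4:154960673-154960922, plus strand: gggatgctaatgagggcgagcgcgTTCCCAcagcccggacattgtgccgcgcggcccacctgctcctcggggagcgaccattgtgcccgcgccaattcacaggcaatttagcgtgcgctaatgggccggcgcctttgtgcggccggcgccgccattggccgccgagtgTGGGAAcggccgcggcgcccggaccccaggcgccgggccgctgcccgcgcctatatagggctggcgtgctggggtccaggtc
It held 2 matches, the window of Jag1 held 0, and 21.6% of all windows hold at least 1.

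Of 13 Hedgehog genes, 2 were called lower (15.4%) and 0 higher. Gli3, the main repressor form of the pathway's transcription factors, fell from -0.47, -0.01 and 0.30 to -2.23, -1.89 and -1.51 (-1.84 ± 0.35, 3.58-fold lower, adjusted p = 0.0142), with the days apart. Smo, the signal transducer, fell by 0.47 ± 0.11 on the log2 scale (adjusted p = 0.0284), with 1 of 2 probes of opposite sign. Gli1, the pathway's target, had -0.24, 0.98 and 1.68 against 0.20, 0.58 and 0.74 (adjusted p = 0.673). The median of -0.31 was -0.03 with normexp background correction. The lower count was 3 with the batch block, 2 without batch 1 or 3 of day 0, 1 without batch 1 or 2 of day 10, and 0 without batch 2 of day 0 or batch 3 of day 10.

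Of 18 Hippo genes, 17 lay below 0 (median -0.32) and 1 was called lower (5.6%, against 7.66% of all genes). That was Tead2, a partner of YAP, from 3.02, 3.11 and 3.25 to 2.28, 2.50 and 2.54 (-0.66 ± 0.12, adjusted p = 0.0142), with the days apart. The YAP target Ccn2 had 1.43, 3.23 and 4.03 against 1.80, 2.83 and 3.30 (adjusted p = 0.646). The count was 3 without batch 1 of day 0 and 0 without batch 1 or 3 of day 10.

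Some genes of prostaglandin and leukotriene synthesis rose. Of 23 tested, 21 lay above 0, 5 were called higher (21.7%) and 0 lower, and the median was 1.05, or 0.53 with normexp background correction. Ptgds, the lipocalin-type prostaglandin D synthase, rose from -2.78, -2.04 and -0.93 to 0.36, 2.31 and 3.32 (4.19 ± 0.76, 18.3-fold, adjusted p = 0.0114). Ptgs1, the constitutive cyclooxygenase, rose from -2.65, -1.56 and -0.86 to -0.39, 0.22 and 1.14 (1.95 ± 0.44, 3.86-fold, adjusted p = 0.0262). Alox5, the first enzyme of leukotriene synthesis, rose from -5.15, -4.50 and -4.15 to -2.66, -2.15 and -1.61 (2.44 ± 0.36, adjusted p = 0.00366), with 5 arrays of day 0 well above background. Its activating protein Alox5ap rose by 1.5 ± 0.46 (adjusted p = 0.0479) and the prostaglandin F receptor Ptgfr by 1.07 ± 0.26 (adjusted p = 0.0319). For the first 4 the days were apart. Alox5 and Alox5ap are known from myeloid cells, and the part of the higher macrophage marker levels was not tested. The count was 10 with the batch block, 6 without batch 1 of day 0, 4 without batch 2 of day 10, 3 without batch 2 of day 0, and 2 without batch 3 of either day or batch 1 of day 10.

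Of 18 genes of retinoid handling, 1 was called higher (5.6%, against 7.19% of all genes). It was the plasma retinol carrier Rbp4, from -4.17, -2.06 and -0.40 to -0.63, 1.53 and 2.69 (3.50 ± 0.87, 11.3-fold, adjusted p = 0.0362), with an overlap of the days. With the batch block 3 were higher, and 0 without batch 2 or 3 of day 0 or batch 1 or 3 of day 10.

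Genes of axon guidance were called lower in 9 of 41 cases (22%) and higher in 2 (4.9%), with 31 below 0 and a median of -0.33. Sema3c, a secreted semaphorin, fell from 2.89, 3.18 and 3.34 to 1.26, 1.83 and 2.05 (-1.44 ± 0.17, 2.71-fold lower, adjusted p = 0.00354). The membrane protein Islr2, also known as Linx, fell from -0.82, 2.08 and 2.99 to -1.75, -0.87 and -0.14 (-2.50 ± 0.69, adjusted p = 0.0487, or 0.0629 with the batch block), with an overlap. Robo4, a Slit receptor relative of endothelium, was at least 2.29-fold lower on day 10, where it was not well above background on any array (adjusted p = 0.00394). Falls of the ephrin family were called for the receptors Epha7 (-1.05) and Epha4 (-0.89, adjusted p = 0.0679 with the batch block) and the ligands Efna5 (-0.69) and Efnb1 (-0.51), and falls of guidance receptors for Robo2 (-0.93) and Nrp1 (-0.85). Of the 2 that rose, Slit1, a ligand of Robo receptors, did so by 1.43 ± 0.26 (adjusted p = 0.0133). The netrin relative Ntn4 rose by 2.43 ± 0.46 (adjusted p = 0.015), well above background on 1 array of day 0 and 5 of day 10. The lower count was 7 with the batch block and, with 1 batch left out, 6 without batch 1 of day 0, 4 without batch 1 of day 10, 3 without batch 3 of day 0 or batch 2 of day 10, and 2 without batch 2 of day 0 or batch 3 of day 10. The higher count was 1 without batch 3 of either day.

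Of 22 genes of axon growth and regeneration, 1 was called lower (4.5%, against 7.66% of all genes) and 1 higher (4.5%, against 7.19%). Dcx, a microtubule protein of young neurons, fell from -1.25, -0.71 and -0.14 to -4.97, -3.94 and -3.47 (-3.37 ± 0.49, 10.3-fold lower, adjusted p = 0.00676), with 5 arrays of day 10 well above background. Sprr1a, a regeneration gene of injured sensory neurons, rose from -5.60, -5.08 and -4.44 to -4.04, -2.72 and -2.10 (2.15 ± 0.42, adjusted p = 0.013), with 4 arrays of day 0 well above background. With the batch block 2 genes of this list were called lower. Sprr1a was not called without batch 3 of day 10.

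Of 24 synaptic genes, 3 were called lower (12.5%, against 7.66% of all genes) and 2 higher (8.3%, against 7.19%). The synaptotagmins split: Syt13 fell from -2.31, -0.24 and 0.79 to -3.94, -3.63 and -2.60 (-2.95 ± 0.50, 7.74-fold lower, adjusted p = 0.00693) and Syt7, a slow calcium sensor, by 1.61 ± 0.31 on the log2 scale (adjusted p = 0.0157), while Syt4, a sensor of peptide vesicles, rose from 1.57, 2.19 and 2.52 to 3.19, 3.38 and 3.48 (1.21 ± 0.22, adjusted p = 0.0126). The vesicle protein Sv2a fell by 0.95 ± 0.22 on the log2 scale (adjusted p = 0.029), and Syt6 rose by 0.49. Leaving out 1 batch gave 1 to 4 lower (1 without batch 1 or 3 of day 10) and 0 or 1 higher (0 without batch 3 of day 10).

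Of 27 potassium channel genes, 3 were called higher (11.1%) and 1 lower. The beta subunit Kcnab1 rose by 1.65 ± 0.35 (adjusted p = 0.022), the leak channel Kcnk1 by 1.39 ± 0.32 (adjusted p = 0.0295) and Kcnh2, the ERG channel, by 1.09 ± 0.27 (adjusted p = 0.0348). Kcnma1, the large calcium-activated channel, fell by 0.59 ± 0.12 on the log2 scale (adjusted p = 0.0201). Higher calls were 2 without batch 1 or 3 of day 0, 1 without batch 2 of day 0 or batch 1 of day 10, and 0 without batch 2 or 3 of day 10. The lower call was lost without batch 3 of day 0 or any batch of day 10.

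FXYD proteins sit on the sodium pump and tune it, and 3 of 11 genes of the pump and its regulators were called higher (27.3%), all of this family. Fxyd6 rose from 1.56, 1.84 and 3.47 to 6.36, 6.85 and 7.27 (4.68 ± 0.40, 25.6-fold, adjusted p = 0.00161). Fxyd2, a marker of certain sensory neurons, rose from -1.26, -0.07 and 0.94 to 1.07, 1.75 and 2.69 (1.83 ± 0.48, 3.55-fold, adjusted p = 0.0414), and Fxyd3 from -0.43, -0.03 and 0.49 to 1.19, 1.36 and 2.07 (1.49 ± 0.36, 2.82-fold, adjusted p = 0.0316). The days were apart for all 3. The count was 4 with the batch block, 2 without batch 1 of day 0 and 1 without any other batch.

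Some enzymes that build collagen fell and some that cut matrix rose. Of 23 genes of collagen processing, 7 were called lower (30.4%) and 2 higher (8.7%). P3h2, a collagen prolyl 3-hydroxylase, fell from -3.15, -2.85 and -1.56 to -4.23, -3.96 and -3.50 (-1.28 ± 0.27, adjusted p = 0.0217). The prolyl 4-hydroxylase subunits P4ha1 (-0.82 ± 0.20, adjusted p = 0.0361) and P4hb (-0.42), the lysyl hydroxylase Plod2 (-0.46), the collagen chaperone Serpinh1 (-0.54), the crosslinking enzyme Loxl3 (-0.53) and the procollagen protease Adamts14 (-0.67 ± 0.17, adjusted p = 0.0413) also fell. The procollagen protease enhancers Pcolce2 (1.08 ± 0.26, adjusted p = 0.0318) and Pcolce (0.47) were the 2 that rose. The lower count was 5 without batch 1 or 3 of day 0, 4 without batch 2 of day 10, 3 without batch 2 of day 0 and 2 without batch 1 or 3 of day 10. The higher count was 0 without batch 1 or 3 of day 10 and otherwise 1.

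Of 20 metalloproteinases and inhibitors, 5 were called higher (25%) and 3 lower (15%). Mmp3, Mmp12 and Mmp13 passed the filter on dim signals only through days after day 0. Such passing favours rises, so the share of 25% is not read as a result about the list. The stromelysin Mmp3 rose from -5.35, -3.69 and -1.87 to -2.16, 1.11 and 3.11 (4.63 ± 1.13, adjusted p = 0.0339), with 4 arrays of day 0 well above background and an overlap of the days. The collagenase Mmp13 was not well above background on any array of day 0 and had -4.67, -2.88 and -1.15 on day 10, at least 6.93-fold higher (adjusted p = 0.00975). The inhibitor Timp1 rose from 2.47, 3.01 and 3.66 to 3.85, 4.47 and 4.96 (1.40 ± 0.29, adjusted p = 0.0206). The macrophage elastase Mmp12 (adjusted p = 0.0487, or 0.0687 with the batch block; no size is given, since no array of day 0 and 3 of day 10 were well above background) and the aggrecanase Adamts4 (0.86 ± 0.14, adjusted p = 0.01) rose as well, whereas the aggrecanase Adamts5 fell from 1.64, 1.74 and 2.31 to 0.24, 0.50 and 0.57 (-1.38 ± 0.13, 2.61-fold lower, adjusted p = 0.00225), with Mmp17 (-0.84) and the membrane inhibitor Reck (-0.63). The batch block gave 4 higher and 5 lower. Higher calls were 4 without batch 1 of day 0 or batch 2 of day 10, 3 without batch 2 of day 0 and 2 without the others, and lower calls were 4 without batch 1 of day 0, 3 without batch 1 of day 10 and 2 without the others.

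The genes with the largest changes among those measured on all 12 arrays belonged to several of these groups. The chemokine Ccl8 had the largest rise, from -4.93, -3.34 and -2.83 to 2.14, 2.70 and 3.09 (6.24 ± 0.49, 75.8-fold, adjusted p = 0.00128), and Ccl6, also a chemokine of macrophages, rose by 3.54 ± 0.52. Emid1, a secreted matrix protein, rose from 0.22, 1.97 and 2.44 to 5.39, 5.60 and 6.13 (4.14 ± 0.65, 17.7-fold, adjusted p = 0.00859). The amino acid transporter Slc36a2 rose from -3.38, -1.91 and -1.64 to 1.05, 1.73 and 2.13 (4.0 ± 0.45, 16.1-fold, adjusted p = 0.00303), and Nr1h4, the bile acid receptor FXR, from -4.77, -4.59 and -2.92 to -0.49, -0.38 and 0.57 (3.98 ± 0.37, 15.8-fold, adjusted p = 0.00206). In all of these the lowest array of day 10 lay above the highest of day 0. The myelin protein gene Ncmap (5.02 ± 0.59) and the pigment enzyme gene Tyrp1 (4.45 ± 0.41), with Fxyd6, Ptgds, Cbr2, Dkk3 and Rbp4 above, made up the 12 largest.

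The largest falls on all 12 arrays were smaller. Spon1, a secreted protein that guides axons, fell from -1.81, -1.23 and -0.21 to -4.96, -4.31 and -3.55 (-3.17 ± 0.40, 8.99-fold lower, adjusted p = 0.00387). Kcng1, a silent potassium channel subunit, fell by 2.37 ± 0.64 on the log2 scale (adjusted p = 0.0463), Gprin3, a G protein regulated inducer of neurite outgrowth, by 2.11 ± 0.25 (adjusted p = 0.00338) and Cacng5, a receptor auxiliary subunit, by 2.09 ± 0.57 (adjusted p = 0.0464, or 0.0575 with the batch block). Ecel1, a neuronal peptidase that nerve injury induces, fell by 2.05 ± 0.51 (adjusted p = 0.0364, or 0.061 with the block). Prr18 (-1.99) and the choline transporter relative Slc44a5 (-1.93) completed the 12 with Syt13, Igf2bp3, Islr2, Mest and Hrk.

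Some called genes were measured on all arrays of one day and not well above background on any of the other. Higher on day 10 in this sense, besides Fgb, were Cmtm2b (at least 17.9-fold), the cytokine Il17b (13.2-fold), xanthine dehydrogenase Xdh, a source of oxidants and uric acid (8.85-fold), the complement receptor Vsig4 of tissue macrophages (8.41-fold) and Tmc5 (7.39-fold), each as a lower bound. Lower on day 10 were the fatty acid elongase Elovl2 (at least 3.66-fold), Slitrk2 (2.93-fold), the peptide gene Uts2b (2.71-fold), B3gat1, which makes the HNK-1 sugar (2.23-fold), and Zdbf2 (1.86-fold), besides Robo4. 

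Markers of other barrier and glial cells moved beside these groups. Cdh1, which makes the autotypic junctions of myelinating Schwann cells and joins epithelia, rose from -0.43, -0.01 and 0.29 to 2.41, 2.68 and 3.08 (2.69 ± 0.30, 6.45-fold, adjusted p = 0.00294), while the epithelial markers Krt8, Krt18 and Epcam did not pass the filter on dim signals. Of 9 meningeal and barrier epithelial markers tested, Ptgds and Cdh1 were the 2 called higher, or 3 with the batch block. Of 8 satellite glia markers, Glul was called higher and Fabp7 and Cdh19 (-0.76 ± 0.15, adjusted p = 0.0126) lower. Leaving out any batch but batch 1 of day 0 gave 0 higher, and the lower count was 0 without batch 3 of day 10 and 1 without batch 2 of day 0 or batch 1 or 2 of day 10.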

How the data were processed

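Per the labels' protocols, ganglia were pooled within a batch and total RNA was hybridised to one-colour arrays with 62976 spots each. Per the file headers, the authors read spot intensity with Agilent Feature Extraction 10.7.1.1 (10.7.1 in the submitters' processing notes), and the deposited processed signal is background-corrected. A deposited table holds the authors' normalized intensity, with a median of 33.7 in every column. How it was scaled and centred is not given in the sources used. Of its 18 columns, 12 match the array file of another sample of the same day (Spearman correlation 1.0, against at most 0.975 with any other file) and none that of another day.

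Control spots (3671) and outlier spots (98 to 181 per array) were left out, the log2 of the processed signal was taken, and each array's 75th percentile was subtracted. Probes well above background throughout at least 1 of the 3 days were kept, which left 30432 of 55681 probes. Genes dim on day 0 could pass through a later day, which favours rises in the counts of the lists. Genes dim on day 10 could pass through day 0, which favours falls. The arrays were comparable in signal: 56.3% to 61.5% of probes were well above background on day 0 and 55.2% to 60.0% on day 10, and no spot was saturated. Precision is limited by the 3 batches of each day.

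Since the array files give accessions in place of symbols, probes were named through RefSeq accessions (assembly GRCm38.p6): 26582 probes matched 20145 symbols, 1534 RefSeq probes matched none, and the brightest probe stood for each of 3839 genes with several. The technical arrays of a batch were averaged, and limma 3.58.1 (R 4.3.3) was fitted to all 3 days, day 22 included, so that they share one estimate of the spread, with Benjamini-Hochberg adjustment over 22855 features. The script was tested on simulated data.

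The labels say that a batch number marks one collection of embryos, which pairs the days. Deviations of equally numbered batches of days 0 and 10 correlated at 0.23, -0.1 and 0.37 with the batches of the array files and at 0.18, 0.12 and 0.15 with those of the value table. The fit had no batch term, and the fit with the batch as a block is an alternative.

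The lists and the genes named were chosen with earlier results of these data known. Named were the 12 largest called rises and falls on all 12 arrays, up to 4 called members per list (the largest member where fewer than 2 were called), the 6 largest bounds in each direction, and uncalled genes a list is known for. Further called members, and Hspa8, Cryab and Hspb6, were named after their values were seen. Some called genes are not reported here. Alternatives were other batch placements, a slide block or single slides, single technical arrays, other background corrections, normalizations, filters and probe rules, and left-out batches.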

Additional observations from a re-analysis of the deposited data

Results flagged for a closer look

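In 16 of 364 groups of 6 arrays examined among the named genes (4.4%), the highest or lowest array lay further from its nearest neighbour than Dixon's criterion allows, and chance alone gives about 1 in 20. Batches in this section are those of the array files. On the second array of batch 1 of day 0, Maff was highest (1.93), Adamts5 highest (2.31), Cox4i2 lowest (-1.05) and Sv2a lowest (-0.86). On the second array of batch 3 of day 0, Hspb1 (2.28), Alox5ap (-2.26) and Robo4 (-5.34) were lowest and Vsig4 highest (-6.19). On the first array of that batch, the only array of day 0 on slide 3, Grb10 (1.84) and Uts2b (-2.32) were highest. The other value of day 0 was the highest of Ndufs4 (4.17). On day 10 the highest arrays were those of Hspb1 (5.23), Glul (2.25) and Syt13 (-2.60), and the lowest those of Fgb (-4.76) and Psmb8 (0.75).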

How the results depend on the processing

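Of the 157 named genes that were called, 1 changed sign in any alternative: Mbp was at -0.23 with the mean of its probes. With the batch number as a replicate block, 1319 genes were higher and 1150 lower, 146 of the 157 kept their call, and the block changed no other call of a named gene than those given beside their values, apart from Lum and Alpl, which gained one. Against 1046 higher and 1114 lower, the counts were 2082 and 2544 with the batches of the array files alone, 292 and 190 with the first technical arrays, 501 and 395 on slide 1, 447 and 294 on slide 2, and 664 and 594 with no filter on dim probes. Lower calls were 691 with the second technical arrays and 1740 with slide as a block. With 1 batch left out they ran from 349 to 1076 higher and from 210 to 1211 lower. The share of calls that were higher, 48.4%, was 60.6% with the first technical arrays, 60.3% on slide 2 and 62.4% without batch 3 of day 10. The median of all genes lay between -0.05 and 0.01 in every alternative. Of the 157, calls lost were 102 with the first and 51 with the second technical arrays, 81 on slide 1, 90 on slide 2, 58 with no filter, 29 with days 0 and 10 alone, 11 with the authors' values, 10 with normexp, 8 with quantile normalization, and 22 to 97 with 1 batch left out. The cause was not tested, except that left-out batches and single arrays use fewer samples. Dim signals limit Fgb, Cmtm2b and the other genes given as bounds. The normexp correction used median signals, since mean signals were not used here, a choice made after the files were seen.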
